A study of Homo sapiens with 3 samples.

Results

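Keratins were followed in T24 cells, a human bladder carcinoma line, through 10 genes: KRT5, KRT7, KRT8, KRT10, KRT13, KRT17, KRT18, KRT19, KRT80 and KRT81. The 10 were selected by gene symbol, with their counts in these libraries already known, so their values are a description. They belong to 55 protein-coding keratin genes among the 58381 genes of the count table, and 5 are of type I and 5 of type II. RNA was sequenced in 3 conditions with 1 library each. Ctrl was the control, whose treatment is labelled Empty. RT was the control after irradiation, and RT + shHDAC6 was irradiated after lentiviral delivery of a short hairpin RNA against HDAC6. Per the labels the irradiation was 10 Gy from a 137Cs source, and the lentiviral lines, including one with a pLKO.1 control vector, were kept by puromycin selection. The study's results section calls the comparator parental, so whether Ctrl and RT carried the empty vector is not settled by the sources. No unirradiated library with the hairpin was analysed here, and 1 hairpin was used.

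Keratins build the intermediate filaments of epithelial cells. A type I (acidic) and a type II (basic) keratin must pair to form a filament, and the genes of the types lie in clusters on chromosomes 17 and 12, apart from the type I gene KRT18, which sits beside KRT8 in the type II cluster. Pathologists read keratins to tell the origin of a carcinoma: KRT7, KRT8, KRT18 and KRT19 mark simple and glandular epithelia and the urothelium, KRT5, KRT14 and KRT17 the basal cells of stratified epithelia, KRT13 the intermediate urothelial cells, and KRT20 the umbrella cells.

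With 1 library per condition no difference could be set against replicates, and p-values are not given. Levels are depth-scaled counts after TMM (CPM), or CPM per kilobase of the canonical transcript (RPKM) wherever genes are compared with each other. Differences are log2 ratios of the scaled counts with 95% Clopper-Pearson intervals in parentheses, which cover counting error only. A gene was called when it differed at least 2-fold, among genes with at least 10 counts in either library. The totals lay between 35424086 and 41811165 counts, and the limit set by a count of 0 (3 counts) was 0.0662 CPM (Ctrl), 0.0894 (RT) and 0.0857 (RT + shHDAC6). HDAC6 itself, the target of the hairpin, had 3098 (Ctrl), 2383 (RT) and 2170 (RT + shHDAC6) counts. Its log2 ratio was -0.20 (-0.28 to -0.11) for RT + shHDAC6 against RT, and -0.11 with library totals. This is 0.872 times the level in RT after TMM, so HDAC6 RNA was only slightly lower in these counts. The study checked the knockdown in T24 cells by qPCR and Western blotting. Of the identity markers, the 4 epithelial ones had counts in all libraries, with summed levels of 213 (Ctrl), 286 (RT) and 305 (RT + shHDAC6) CPM. KRT18 held most of that sum, and without it the other 3 (EPCAM, CDH1 and KRT8) summed to 51.5, 36.6 and 46.2 CPM, lowest in RT. Of the 5 urothelial markers, UPK1A had at most 18 counts and UPK1B, UPK2 and UPK3A at most 3, so these were nearly absent. GATA3, the remaining marker, had 2320 (Ctrl), 1423 (RT) and 709 (RT + shHDAC6) counts. The mesenchymal genes VIM, CDH2 and ZEB1 summed to 2910, 2526 and 2921 CPM, nearly all of it VIM, whereas CDH2 had 150, 257 and 125 CPM and was highest in RT. The 3 fibroblast markers summed to between 173 and 276 CPM, the 3 leukocyte ones to between 2.26 and 3.20 CPM and the 2 melanocyte ones to between 0.838 and 1.14 CPM. In a bulk library, fewer cells that express a gene and less of its RNA per cell cannot be told apart.

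In RT against Ctrl, 8 of the 10 genes passed the count filter, and 0 were called higher and 0 lower. The background was 4.81% of 20267 genes called higher and 9.17% called lower, which is 975 and 1858 genes. Scaling by library totals alone turned these counts into 523 and 2845. The median log2 ratio of the 8 was -0.24, beside -0.06 over all genes assessed. For RT + shHDAC6 against RT, 9 passed the filter, 1 was called higher (KRT81) and 1 lower (KRT7), where 4.36% of 19013 genes were called higher and 4.78% lower. The median of the 9 was 0.35, beside -0.0032 over all genes assessed. When RT + shHDAC6 was set against Ctrl, 9 passed, 0 were called higher and 1 lower (KRT7), with 4.91% of 20374 genes called higher and 10.5% lower, and the median was -0.12 beside -0.06. Since the genes were chosen with these values known, the counts are a description of the 10 alone.

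KRT7 was the keratin that differed most between the irradiated libraries. This type II partner of KRT19, which lies on GRCh38 chromosome 12 from 52232520 to 52252186, plus strand, had 3533 (Ctrl), 3854 (RT) and 597 (RT + shHDAC6) counts. In CPM these were 77.9, 115 and 17.1, so RT was the highest library and RT + shHDAC6 by far the lowest. KRT7 fell in RT + shHDAC6 to 0.148 times its level in RT, a log2 ratio of -2.75 (-2.88 to -2.63). Against Ctrl it fell to 0.219 times, a log2 ratio of -2.19 (-2.32 to -2.07). Its log2 ratio for RT against Ctrl was 0.56 (0.49 to 0.63), which is under 2-fold. The RT library enters the ratios of RT against Ctrl and of RT + shHDAC6 against RT, so its value moves them in opposite directions. The fall against Ctrl does not use the RT library. Among the 12066 genes that reached 100 counts in RT or RT + shHDAC6, 11 had a log2 ratio at or under that of KRT7, KRT7 included.

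**Figure D1:**
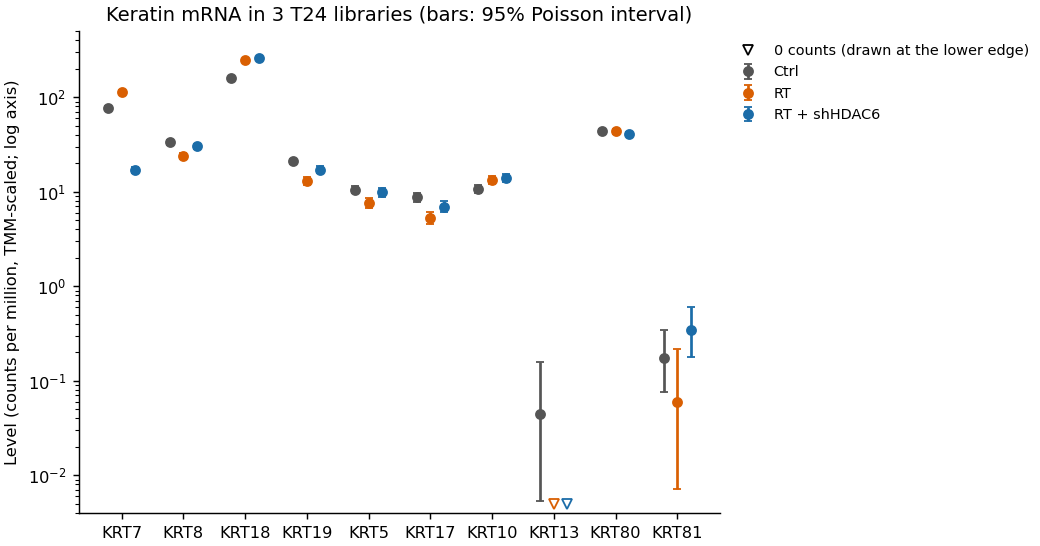
Level of each of the 10 keratin genes (x axis) in CPM on a log axis, 1 point per library in Ctrl, RT and RT + shHDAC6, with 95% Poisson intervals as bars. KRT7 drops to 17.1 CPM in RT + shHDAC6 while KRT18 stays at the top, and KRT13 has no counts outside Ctrl.

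KRT18 (chromosome 12, 52948871 to 52952906), the type I keratin of simple epithelia, was the most abundant keratin RNA in every library. It had 7336 (Ctrl), 8362 (RT) and 9048 (RT + shHDAC6) counts, or 162, 249 and 258 CPM. The level was thus lowest in Ctrl, and the irradiated libraries were close to each other. The log2 ratio was 0.62 (0.58 to 0.67) for RT against Ctrl, 0.05 (0.01 to 0.09) for RT + shHDAC6 against RT and 0.68 (0.63 to 0.72) for RT + shHDAC6 against Ctrl, all under 2-fold.

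KRT8 (chromosome 12, 52897187 to 52949954), the type II partner of KRT18, did not follow it. The annotated genes overlap on opposite strands, and exons of other-strand genes cover 17.1% of the exon length of KRT18. KRT8 had 1508 (Ctrl), 796 (RT) and 1060 (RT + shHDAC6) counts, or 33.3, 23.7 and 30.3 CPM, so RT was the lowest of the libraries. Its log2 ratios were -0.49 (-0.61 to -0.36) for RT against Ctrl, 0.35 (0.22 to 0.49) for RT + shHDAC6 against RT and -0.14 (-0.25 to -0.02) for RT + shHDAC6 against Ctrl. Per length, KRT8 RNA stood to KRT18 RNA at 0.163 (0.154 to 0.172) in Ctrl, at 0.0754 (0.0700 to 0.0811) in RT and at 0.0928 (0.0870 to 0.0989) in RT + shHDAC6. These intervals do not overlap between the libraries, but they take the KRT8 counts alone, without those of its pseudogenes. The counts of KRT8, KRT18 and KRT81 are the least certain of the 10, as their reads can match other genes. Of the 50-base words of its canonical transcript, 39.0% also lie in another keratin gene or pseudogene, and the same holds for 35.3% of the words of KRT18. The 51 KRT8 pseudogenes of the table held 570 (Ctrl), 413 (RT) and 310 (RT + shHDAC6) counts, which equals 37.8%, 51.9% and 29.2% of the KRT8 counts. With these counts added to KRT8, the log2 ratio for RT + shHDAC6 against RT was 0.12 (0.0056 to 0.23) and that for RT against Ctrl was -0.35 (-0.45 to -0.24). The first of these intervals overlaps that of KRT18 (0.01 to 0.09). With the pseudogenes, KRT8 was thus not set apart from KRT18 between the irradiated libraries. The 67 KRT18 pseudogenes held counts equal to 3.44%, 2.68% and 2.30% of those of KRT18.

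KRT19 (chromosome 17, 41523617 to 41528308), the smallest keratin and the type I partner of KRT7, had 950 (Ctrl), 441 (RT) and 602 (RT + shHDAC6) counts. In CPM these were 20.9, 13.1 and 17.2, again lowest in RT. The log2 ratio was -0.67 (-0.84 to -0.51) for RT against Ctrl, 0.39 (0.21 to 0.57) for RT + shHDAC6 against RT and -0.29 (-0.43 to -0.14) for RT + shHDAC6 against Ctrl. The ratio of KRT7 to KRT19 RNA per length was 3.18 in Ctrl, 7.48 in RT but 0.848 (0.756 to 0.952) in RT + shHDAC6. KRT19 RNA was therefore the more abundant of the pair in RT + shHDAC6 and the less abundant in the other libraries.

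The basal keratins KRT5 and KRT17 had the same order of libraries as KRT8 and KRT19. KRT5 (chromosome 12, 52514575 to 52520530), the type II keratin of basal cells, had 478 (Ctrl), 257 (RT) and 345 (RT + shHDAC6) counts, or 10.5, 7.66 and 9.85 CPM. Its log2 ratio was -0.46 (-0.68 to -0.24) for RT against Ctrl and 0.36 (0.13 to 0.60) for RT + shHDAC6 against RT. KRT17 (chromosome 17, 41619442 to 41624842), a type I keratin that is induced in injured skin, had 396, 178 and 244 counts, or 8.73, 5.31 and 6.97 CPM. The corresponding log2 ratios were -0.72 (-0.98 to -0.46) and 0.39 (0.11 to 0.68). For RT + shHDAC6 against Ctrl the log2 ratio was -0.10 (-0.30 to 0.11) for KRT5 and -0.33 (-0.56 to -0.09) for KRT17, and the interval of KRT5 includes 0.

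The other keratins that reached 100 counts in a library, KRT14 and KRT15, are basal type I genes and had this order too. KRT14 had 427 (Ctrl), 212 (RT) and 284 (RT + shHDAC6) counts, with log2 ratios of -0.57 (-0.82 to -0.33) for RT against Ctrl and 0.36 (0.10 to 0.62) for RT + shHDAC6 against RT. KRT15 had 667, 262 and 378 counts, with -0.91 (-1.12 to -0.70) and 0.47 (0.24 to 0.70). Of the 10 keratins that reached 100 counts, 6 were thus highest in Ctrl, intermediate in RT + shHDAC6 and lowest in RT: KRT5, KRT8, KRT14, KRT15, KRT17 and KRT19. None of the 6 passed 2-fold in either comparison after TMM, whereas KRT15 reached -1.13 in RT against Ctrl when scaled by library totals. The ratio of KRT5 to KRT14 RNA per length was 0.818, 0.886 and 0.888 in Ctrl, RT and RT + shHDAC6, with overlapping intervals. Of the 50-base words of KRT17, 14.6% are shared with another keratin gene or pseudogene, and of those of KRT14, 21.7%.

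**Figure D2:**
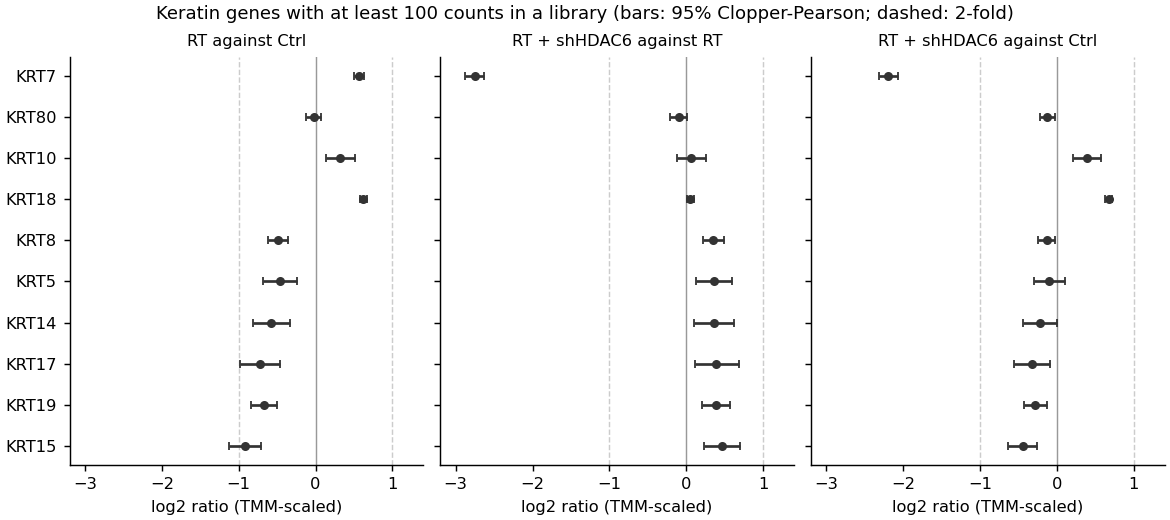
Log2 ratios after TMM scaling (x axis) of the 10 keratin genes that reached 100 counts in a library (y axis), in RT against Ctrl, RT + shHDAC6 against RT and RT + shHDAC6 against Ctrl, with 95% Clopper-Pearson intervals and dashed lines at 2-fold. KRT7 at -2.75 and -2.19 lies outside the dashed lines, the other genes lie within them, and KRT5, KRT8, KRT14, KRT15, KRT17 and KRT19 lie left of 0 in the first panel and right of it in the second, the reverse of KRT7.

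KRT10 and KRT80 varied least. KRT10 (chromosome 17, 40818117 to 40822614), the type I keratin of suprabasal epidermis, had 487 (Ctrl), 450 (RT) and 492 (RT + shHDAC6) counts, or 10.7, 13.4 and 14.1 CPM. Its log2 ratio was 0.32 (0.13 to 0.51) for RT against Ctrl, 0.07 (-0.12 to 0.25) for RT + shHDAC6 against RT and 0.39 (0.20 to 0.57) for RT + shHDAC6 against Ctrl. It is the gene with the least read sharing, with 0 of its 50-base words in another keratin. KRT10-AS1, a non-coding gene that lies over KRT10 and is named here after its values were seen, had 100, 132 and 134 counts.

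KRT80 (chromosome 12, 52168996 to 52192014), a type II keratin related to the hair keratins and found near desmosomes, had 2008 (Ctrl), 1460 (RT) and 1423 (RT + shHDAC6) counts. In CPM the libraries were alike at 44.3, 43.5 and 40.6. The log2 ratio was -0.02 (-0.12 to 0.07) for RT against Ctrl, where other scalings gave -0.24 to 0.034 and hence either sign. It was -0.10 (-0.21 to 0.01) for RT + shHDAC6 against RT and -0.12 (-0.22 to -0.03) for RT + shHDAC6 against Ctrl.

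KRT13 was under the limit of detection, and KRT81 was under it in RT alone. KRT13 (chromosome 17, 41500981 to 41505705), the keratin of intermediate urothelial cells, had 2 (Ctrl), 0 (RT) and 0 (RT + shHDAC6) counts, which is under the level of 3 counts in each library, so no difference was detectable at this depth. KRT20, the umbrella cell keratin, which was looked up after the values were seen, had 0, 0 and 3 counts. KRT81 (chromosome 12, 52285913 to 52291534), a type II hair keratin that is also expressed in some carcinomas, had 8 (Ctrl), 2 (RT) and 12 (RT + shHDAC6) counts. It was called higher in RT + shHDAC6 than in RT, with a log2 ratio of 2.52 whose interval of 0.36 to 5.72 reflects the 2 counts in RT. Its near copy KRT86, named after its values were seen, was called lower in that comparison, with 29, 14 and 4 counts and a log2 ratio of -1.87 (-3.93 to -0.20). Of the 50-base words of KRT81, 38.4% are shared with KRT86, and summed over both genes the counts were 37, 16 and 16, a log2 ratio of -0.06 (-1.16 to 1.03) for RT + shHDAC6 against RT. How reads that match both genes were assigned is not given in the sources used here. The longest coding stretch that the canonical transcripts of both genes hold letter for letter has 309 bases in exon 1 of KRT81 (GRCh38 chr12:52291097-52291405, minus strand). Its first 150 bases (chr12:52291256-52291405) are shown because a read of this stretch fits both genes, and no base is capitalised since none differs.
KRT81 and KRT86: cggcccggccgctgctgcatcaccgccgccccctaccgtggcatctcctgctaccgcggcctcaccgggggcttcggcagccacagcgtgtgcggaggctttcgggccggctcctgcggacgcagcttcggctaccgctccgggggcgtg

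Over the 55 keratin genes, 36 had a count in a library, 17 had at least 10 and 19 had none. In RT against Ctrl, 14 were assessed, of which 11 had a log2 ratio under 0 and 2 were called lower, with a median of -0.60. In RT + shHDAC6 against RT, 17 were assessed, of which 13 lay above 0, 3 were called higher and 2 lower, with a median of 0.36. Among the basal and stress keratins (8 listed), all 6 assessed in RT against Ctrl lay under 0 with 1 called lower (KRT6B, at -1.02 after TMM and -0.96 with median of ratios) and a median of -0.71, and 6 of the 7 assessed in RT + shHDAC6 against RT lay above 0 with 0 called and a median of 0.39. Over all genes, 10992 of 20267 lay under 0 in the first comparison and 9421 of 19013 above 0 in the second. The shares of all genes called were 4.81% higher and 9.17% lower in the first, and 4.36% and 4.78% in the second. Both comparisons use the RT library, whose value enters them with opposite sign. Against library totals, TMM moved all log2 ratios by 0.22 in RT against Ctrl and by -0.084 in RT + shHDAC6 against RT. The genes called outside the 10 had few counts and are named after their values were seen. KRT6B had 74, 27 and 47 counts and KRT23 had 33, 11 and 25, each called lower in RT against Ctrl. KRT23 was called higher in RT + shHDAC6 against RT, as was KRT34 with 0, 4 and 21 counts, and KRT86 was called lower.

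**Figure D3:**
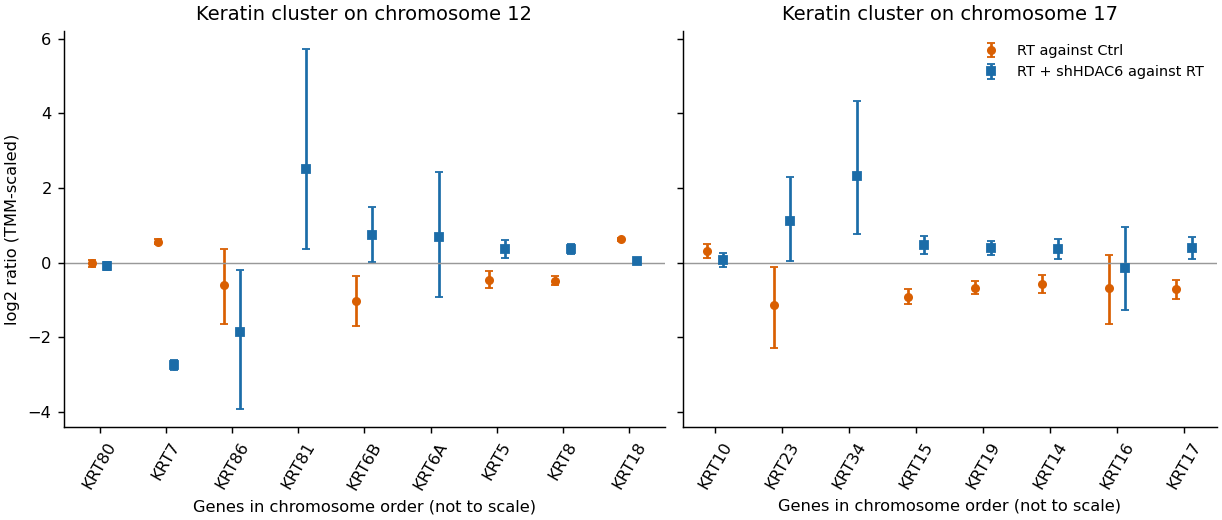
Log2 ratios after TMM scaling (y axis) of keratin genes with at least 10 counts in a compared library, in chromosome order and not to scale, for RT against Ctrl (circles) and RT + shHDAC6 against RT (squares), with 95% Clopper-Pearson intervals. In the chromosome 12 cluster KRT7 stands at -2.75 between KRT80 at -0.10 and the sparsely counted KRT86, and in the chromosome 17 cluster KRT15, KRT19, KRT14 and KRT17 lie on the same sides of 0.

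Of the neighbours of KRT7 in the chromosome 12 cluster, KRT80, on its one side, had a log2 ratio of -0.10 for RT + shHDAC6 against RT, while KRT86, on its other side, was called lower as KRT7 was. On 29, 14 and 4 counts the ratio of KRT86 was -1.87 (-3.93 to -0.20) against RT, an interval that holds the ratio of KRT7, and -2.48 against Ctrl. The annotated KRT86 gene (52249300 to 52309163) begins within KRT7 on the same strand, although 0% of the exon length of KRT7 lies in exons of another gene on that strand. KRT81, which lies within the span of KRT86 on the other strand, was called higher at 2.52 on few counts. Summed over KRT81 and KRT86, the log2 ratio for RT + shHDAC6 against RT was -0.06 (-1.16 to 1.03). The part of read assignment in the ratio of KRT86 was not tested. Further along, KRT5, KRT8 and KRT18 lay between 0.05 and 0.36. In the chromosome 17 cluster KRT15, KRT19, KRT14 and KRT17 lay between 0.36 and 0.47. The antisense gene KRT7-AS, which overlaps KRT7 on the other strand (7.85% of the exon length of KRT7 is overlapped there), had 5 (Ctrl), 1 (RT) and 1 (RT + shHDAC6) counts, and 0.444% of the 50-base words of KRT7 are shared with another keratin gene or pseudogene.

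Across the genome, 5 genes had the pattern nearest to that of KRT7, by Euclidean distance over the log2 ratios of RT against Ctrl and RT + shHDAC6 against RT among 12684 genes that reached 100 counts in a library. OSCAR, an immunoglobulin-like receptor of osteoclasts, was nearest, with 1294 (Ctrl), 1263 (RT) and 203 (RT + shHDAC6) counts. ANO5, a member of the anoctamin family, had 684, 650 and 92. ABCB1, the multidrug efflux pump, had 818, 878 and 110. MAGEC2, a cancer-testis antigen, had 4580, 4295 and 806, and SLCO6A1, an organic anion transporter family member of the testis, had 170, 142 and 22. The log2 ratios of the 5 genes for RT + shHDAC6 against RT ran from -3.06 to -2.48, and those for RT against Ctrl from 0.18 to 0.54. Both ratios share the RT library, and the likeness rests on 3 values a gene.

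The make-up of the keratin RNA differed between the libraries. Per length, KRT18 made up 47.8% of all keratin RNA in Ctrl, 58.0% after irradiation and 69.8% in RT + shHDAC6. KRT7 made up 20.0%, 23.3% and 4.0%, and KRT8 7.78%, 4.38% and 6.47%. KRT19 took 6.29%, 3.11% and 4.72% and KRT80 4.77%, 3.70% and 4.0%. These are parts of a whole, so a fall of KRT7 by construction raises the other shares, and with them the type I share. The RPKM of KRT18 itself was 176 in RT and 183 in RT + shHDAC6. The 10 genes together held between 93.2% and 96.8% of the keratin RNA. Summed RPKM was 240 (Ctrl), 304 (RT) and 262 (RT + shHDAC6), and keratin reads were between 0.0413% and 0.0455% of all counts.

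**Figure D4:**
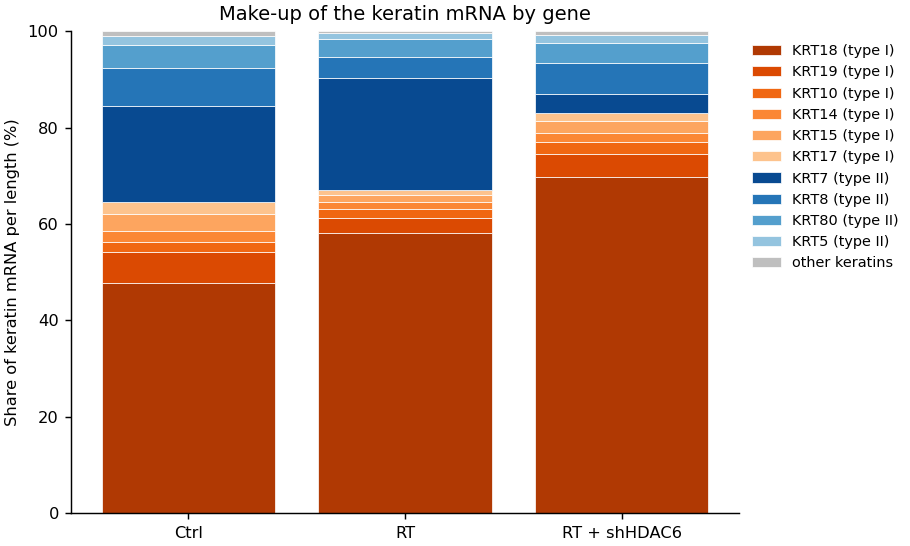
Share of the summed length-scaled keratin RNA (y axis, percent) held by each gene in the 3 libraries, stacked, with type I genes in orange and type II genes in blue. The band of KRT7 shrinks from 23.3% in RT to 4.0% in RT + shHDAC6 and the type I part grows to 83.4%.

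Type I genes accounted for 64.9% (Ctrl), 67.3% (RT) and 83.4% (RT + shHDAC6) of the keratin RNA, so RNA for the acidic partner exceeded that for the basic one in every library. Without KRT8 and KRT18, whose reads are shared with pseudogenes, the shares were 38.6%, 24.7% and 57.5%. RT was then below Ctrl and not above it, type I RNA was the smaller part in both, and RT + shHDAC6 still had the highest share. Keratin protein was not measured in these data.

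Within a library, the order of the genes by RPKM was led by KRT18 and KRT7 in Ctrl (114 and 47.9) and in RT (176 and 70.7). In RT + shHDAC6 the order was KRT18 (183), KRT8 (16.97), KRT19 (12.4), KRT80 (10.5) and KRT7 (10.5), and the counting intervals of KRT80 and KRT7 overlapped. KRT7 thus moved from the second place to the fifth. KRT8 took the third place in Ctrl and RT at 18.6 and 13.3 RPKM. Of the 10 selected genes, 8 reached 100 counts, and KRT10, KRT17 and KRT5 were the lowest of these in all libraries, between 3.42 and 6.56 RPKM, and the intervals of KRT17 and KRT5 overlapped in RT and RT + shHDAC6, whereas in Ctrl KRT17 overlapped KRT10 and KRT10 overlapped KRT5.

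The sequence before the start of transcription is shown for a basal keratin and for KRT10, since KRT5 was lowest in RT and KRT10 lowest in Ctrl. RefSeq's table (GRCh38.p14) held a promoter for 3 of the 10 genes. That of KRT8 belongs to a start 21393 bases upstream of the canonical transcript and is not shown. Each sequence has the 250 bases before the start, read 5′ to 3′ on the minus strand, at chr12:52520395-52520644 for KRT5 and at chr17:40822615-40822864 for KRT10. The capitals mark exact matches to 6 motifs: the TATA box TATAAA on the printed strand and, on both strands, the GC box GGGCGG, the AP-1 site TGANTCA, the TEAD site GGAATG, the AP-2 site GCCNNNGGC and the KLF core CACCC.
KRT5: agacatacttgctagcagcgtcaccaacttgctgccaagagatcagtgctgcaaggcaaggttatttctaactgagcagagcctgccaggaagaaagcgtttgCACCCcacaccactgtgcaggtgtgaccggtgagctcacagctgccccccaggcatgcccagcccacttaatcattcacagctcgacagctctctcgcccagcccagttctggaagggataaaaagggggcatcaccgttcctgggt
KRT10: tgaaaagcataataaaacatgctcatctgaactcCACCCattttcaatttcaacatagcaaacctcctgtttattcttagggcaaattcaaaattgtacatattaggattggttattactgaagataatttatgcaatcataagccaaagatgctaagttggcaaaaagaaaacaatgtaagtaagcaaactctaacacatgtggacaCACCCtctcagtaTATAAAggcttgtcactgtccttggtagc

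KRT10 held the exact letters TATAAA, with the first base at position -29 from the start, and 2 copies of the KLF core. KRT5 held 1 copy of the KLF core, at position -147 from the start, and none of the other letters searched. Runs that differ from TATAAA by a letter are not marked, such as gataaa near the end of the KRT5 sequence. Whether KRT5 lacks a TATA element is therefore not settled by this search. Of 35116 RefSeq promoters of this length, 6.80% held TATAAA, 42.6% GGGCGG, 6.57% TGANTCA, 11.9% GGAATG, 19.8% GCCNNNGGC and 54.7% CACCC. A match is a run of letters and not a measured binding site.

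Companion genes of the keratin network were read from lists of desmosome genes, linker and hemidesmosome genes, other intermediate filaments and transcription factors. Their calls stand beside those of all genes assessed. In RT against Ctrl these were 4.81% higher and 9.17% lower, with a median of -0.06. In RT + shHDAC6 against RT they were 4.36% and 4.78%, with a median of -0.0032. Desmosomes anchor keratin filaments at cell contacts. Of 13 desmosome genes, 10 were assessed in each of the main comparisons. In RT against Ctrl 0 were called higher and 1 lower, with a median of -0.59, and in RT + shHDAC6 against RT 1 was called higher and 0 lower, with a median of 0.26. JUP (plakoglobin), which ties desmosomal cadherins to the plaque, had 3367 (Ctrl), 815 (RT) and 713 (RT + shHDAC6) counts and fell in RT against Ctrl with a log2 ratio of -1.61 (-1.72 to -1.50). PKP3 (plakophilin 3) had 624, 254 and 538 counts and rose in RT + shHDAC6 against RT with a log2 ratio of 1.02 (0.80 to 1.24). With library totals 3 desmosome genes were lower in RT against Ctrl (JUP, PKP3 and DSG2).

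Of the 11 linker and hemidesmosome genes, which couple keratins to other structures and to the basement membrane, 11 were assessed, with 1 called higher and 1 lower in RT against Ctrl and 1 higher and 0 lower in RT + shHDAC6 against RT. PPL (periplakin), a linker of the desmosome, had 924, 153 and 116 counts and fell in RT against Ctrl with a log2 ratio of -2.16 (-2.42 to -1.91). ITGB4, the integrin subunit that hemidesmosomes use to hold keratin through plectin, had 9774, 3672 and 9653 counts and rose in RT + shHDAC6 against RT with 1.33 (1.28 to 1.39). CD151, a tetraspanin of hemidesmosomes, had 8672, 14193 and 11970 counts and rose in RT against Ctrl with 1.15 (1.11 to 1.18). The scaling decided several calls of this list in RT against Ctrl: with library totals CD151 stood at 0.93, so that 0 genes were higher, and 3 were lower (ITGB4 at -1.19, FAM83H and PPL). ITGB4 was thus lowest in RT, as the basal keratins were, whereas CD151 was highest there. ITGA6, named after its values were seen, was highest in RT too, with 46890, 68192 and 40346 counts. Its log2 ratio was 0.98 (0.96 to 0.99) in RT against Ctrl and -0.82 (-0.84 to -0.80) between the irradiated libraries. Over the list, 8 of the 11 genes lay above 0 in RT against Ctrl and 3 under it, with a median of 0.26. Between the irradiated libraries 7 lay above 0 and 4 under it, with a median of 0.07.

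Among the 14 other intermediate filament genes, 13 were assessed in RT against Ctrl with 0 called higher and 2 lower and a median of -0.73, and with library totals 5 were lower. Between the irradiated libraries, 12 were assessed with 1 higher and 0 lower and a median of 0.21. VIM (vimentin), the filament protein of mesenchymal cells and a marker checked above, had 121716, 74147 and 95822 counts, far above any keratin. SYNC (syncoilin) had 141, 47 and 37 counts and fell in RT against Ctrl with -1.15 (-1.66 to -0.66).

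Of 13 epithelial transcription factors, 10 were assessed in RT against Ctrl with 0 called higher and 2 lower and a median of -0.65, and all 10 lay under 0 after TMM. Between the irradiated libraries, 9 were assessed with 1 higher and 0 lower and a median of 0.45. ELF3, an ETS factor of epithelia, had 154, 50 and 80 counts and fell in RT against Ctrl with -1.19 (-1.68 to -0.72). TFAP2C, an AP-2 factor that acts in keratinocytes, had 329, 154 and 452 counts and rose in RT + shHDAC6 against RT with 1.49 (1.22 to 1.76). Of the 6 mesenchymal factors none was called among the 5 assessed in RT against Ctrl, with a median of -0.39 (SNAI1 was called lower there with library totals), or among the 6 assessed between the irradiated libraries, where the median was 0.06. In RT + shHDAC6 against Ctrl, 1 was called higher and 1 lower, beside 4.91% and 10.5% of all genes. SNAI2, with 403, 178 and 99 counts, stood at -1.65 there and at -0.91 (-1.28 to -0.55) against RT. TWIST2 stood at 1.37 (-0.31 to 3.27) against Ctrl, on 5, 9 and 10 counts.

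**Figure D5:**
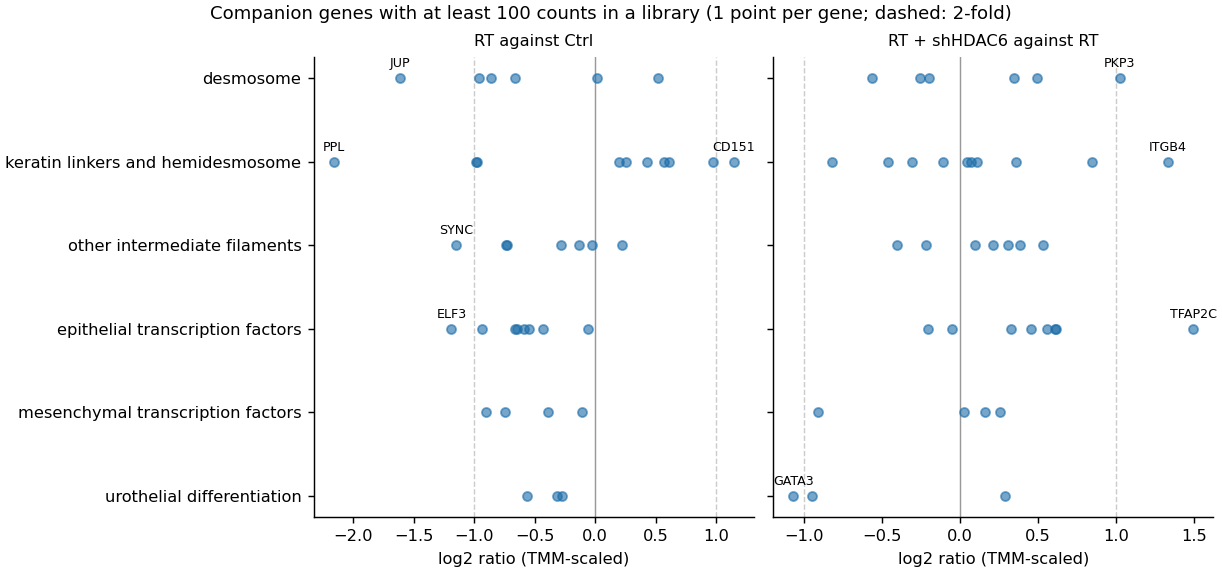
Log2 ratios after TMM scaling (x axis) of companion genes that reached 100 counts in a library, 1 point per gene and 1 row per list, for RT against Ctrl and RT + shHDAC6 against RT, with dashed lines at 2-fold and names for the genes called. JUP at -1.61 and PPL at -2.16 lie far left in the first panel, and ITGB4 at 1.33 and TFAP2C at 1.49 far right in the second.

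GATA3, the luminal urothelial factor, lay just past 2-fold lower when RT + shHDAC6 was set against RT. It had 2320 (Ctrl), 1423 (RT) and 709 (RT + shHDAC6) counts, and its log2 ratio for RT + shHDAC6 against RT was -1.07 (-1.20 to -0.94) after TMM but -0.98 with library totals, where it was not called. For RT against Ctrl its log2 ratio was -0.27 (-0.37 to -0.17), where that of KRT7 was above 0. Of the 8 urothelial differentiation genes, 3 were assessed in RT + shHDAC6 against RT with 0 called higher and 1 lower, and 4 in RT + shHDAC6 against Ctrl with 0 higher and 3 lower and a median of -1.42, beside 10.5% of all genes called lower and a median of -0.06. The 3 were GATA3 at -1.34, PPARG, a luminal nuclear receptor, at -1.51, and UPK1A on 18, 2 and 2 counts. FOXA1, the other gene assessed and named after its values were seen, did not fall with them. It had 509, 303 and 386 counts, with log2 ratios of 0.29 (0.07 to 0.51) against RT and -0.03 (-0.22 to 0.17) against Ctrl. The summed level of the 5 urothelial markers was 51.6 (Ctrl), 42.6 (RT) and 20.4 (RT + shHDAC6) CPM, nearly all of it GATA3. The part of cell identity in the fall of KRT7 was not tested. Of the 12 cornified envelope genes, which mark terminal epidermal differentiation, 3 were assessed in RT against Ctrl and 2 in RT + shHDAC6 against RT, and 0 were called in either direction.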

How the data were processed

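RNA-seq of T24 cells was examined in 3 libraries, 1 per condition. The authors trimmed reads with cutadapt, aligned them with STAR (2.6.1a per the submitters' notes) to GRCh38, assigned them with featureCounts to GENCODE release 28 genes, and deposited whole-number read counts without normalisation. The library kit differs between the labels and the study's methods, and the strand setting and the treatment of reads that match several genes are not given in the sources used here, so paralogs, pseudogenes and antisense genes could share counts. With 1 library per condition, counting error is all that intervals and limits cover. Reads carry no molecular identifiers, so amplified copies of a molecule could count as separate reads, which the intervals do not allow for.

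Symbols and positions came from GENCODE release 44, which named 57754 of the 58381 identifiers. The 10 keratin genes and the gene lists were chosen with earlier results of these data known. With 1 library per condition, edgeR's quasi-likelihood test could not be run. The caller used by the study simulates noise from single libraries, and a plain rule of 2-fold was used instead, among genes with at least 10 counts in either library. Log2 ratios were computed after TMM scaling (edgeR 4.0.16, R 4.3.3), with a count of 0 set to 0.5, and were checked on simulated data. The simulation held counting noise only, with as many genes raised as lowered. It therefore covers neither variation between cultures nor a lopsided change. Intervals were computed with scipy 1.17.1 in Python 3.11.15. Named genes were all 10 keratins, other keratins with at least 100 counts in a library, up to 4 genes past 2-fold with at least 100 counts per companion list, the 5 genes nearest to KRT7, and HDAC6. Alternatives covered the scaling (library totals, upper quartile, and median of ratios with DESeq2 1.42.0), the count filter, the fold, the value for 0, and the length behind the type I share. Union exon lengths and the addition of KRT8 pseudogenes were tried after seeing the data, as were the other scalings for genes outside the 10.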

Additional observations from a re-analysis of the deposited data

How the results depend on the processing

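KRT7 was called lower in RT + shHDAC6 against RT and against Ctrl under every scaling, filter and fold tried, with a log2 ratio between -2.76 and -2.67 against RT. Its counts and ratios lay well past each filter and fold, so this outcome follows from their size. Of 120 log2 ratios of the 10 genes under other scalings and another value for 0, 106 moved by less than the counting interval, 14 moved further and 0 of those called changed sign. The value for 0 could change KRT13 alone. For the other genes that setting repeats the main value by construction and counts among the 106, and all 14 came from the scalings. KRT80 in RT against Ctrl and KRT13 in RT + shHDAC6 against RT, neither of them called, changed sign with the scaling. Outside the 10, the calls of CD151, ITGB4, PKP3, KRT15 and KRT6B in RT against Ctrl and of GATA3 and CDH2 in RT + shHDAC6 against RT depended on the scaling, an alternative chosen after seeing the data.

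Among the 10 genes, a threshold of 1.5-fold gave 1 higher (KRT18) and 2 lower (KRT19 and KRT17) in RT against Ctrl and 2 higher (KRT81 and KRT18) in RT + shHDAC6 against Ctrl. Without a count filter, 2 were lower in RT against Ctrl (KRT81 and KRT13) and 2 in RT + shHDAC6 against Ctrl (KRT7 and KRT13), all but KRT7 on fewer than 10 counts. With at least 100 counts, 0 were higher in RT + shHDAC6 against RT. Median of ratios gave 1 higher (KRT81) in RT + shHDAC6 against Ctrl.

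Over all genes, library totals gave 523 higher and 2845 lower in RT against Ctrl, in place of 975 and 1858 with TMM. Higher and lower calls in RT against Ctrl were 4036 and 5149 without a filter, 537 and 278 with at least 100 counts, 2938 and 4156 at 1.5-fold and 204 and 632 at 3-fold. In RT + shHDAC6 against RT they were 3032 and 5179, 120 and 259, 1917 and 1888, and 303 and 374 under the same settings. In RT + shHDAC6 against Ctrl they were 4157 and 5309, 452 and 562, 2830 and 4182, and 286 and 923. The type I share in Ctrl, RT and RT + shHDAC6 was 57.5%, 60.7% and 76.0% without division by length, 38.6%, 24.7% and 57.5% without KRT8 and KRT18, and 66.8% and 69.0% in Ctrl and RT with union exon lengths, which were chosen after seeing the data. The cause of these shifts was not tested beyond what each setting changes by construction.

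Depth limits KRT13 and KRT81, and counting intervals hold no variation between cultures. No paired analysis was possible because each condition has 1 library.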
